A study of Mus musculus with 12 samples.

Results

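Goblet cells are the mucus-secreting cells of the intestinal epithelium, and 10 genes of their mucus and of its regulators are described here: Atoh1, Spdef, Muc2, Fcgbp, Clca1, Zg16, Tff3, Spink4, Retnlb and Agr2. They were taken by symbol from the deposited expression table, in which 9 of the 10 stood among 17175 genes, and Retnlb was not analysed here. RNA had been sequenced from bulk small intestine in 4 groups of 3 libraries each. The groups were the proximal segment of mice with a conditional knockout (cKO) of Bmpr1a, the proximal segment of wild-type (WT) mice, the distal segment of cKO mice and the distal segment of WT mice. Bmpr1a encodes a receptor for bone morphogenetic proteins (BMPs), and the series asks how this signal bears on the length of villi. The driver of the deletion and the age, sex and strain of the mice are not given in the sources used here. Whether each library is a separate animal is not stated in the labels, so the p-values speak to the spread between these libraries alone. That spread may be technical, with an exception in the cKO groups. Their libraries numbered 1 differ from numbers 2 and 3 in Y-linked reads, as given below, so these are not repeats of a single animal.

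Intestinal mucus is built around the gel-forming mucin MUC2, which goblet cells fold, glycosylate, pack into granules and release. Atoh1 commits epithelial progenitors to the secretory lineage, and Spdef drives the maturation of goblet cells. The other proteins shape the gel after or during its assembly: FCGBP binds MUC2, CLCA1 is a protease that processes it, ZG16 is a lectin that binds bacteria, TFF3 is a trefoil peptide, and AGR2 is a protein disulfide isomerase needed for mucin production in mice. SPINK4 is a secreted peptide of the Kazal type of serine protease inhibitors, and RETNLB is a resistin-like secreted protein. In bulk RNA, fewer goblet cells and less RNA per goblet cell cannot be told apart.

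The libraries held 11242024 to 17722756 reads. Values below are scaled read counts, that is, (read count + 1) divided by a size factor of the library, so a gene with 0 reads has a value near 1. Id1, a gene induced by BMP signals, averaged 127 ± 25.0 in cKO proximal against 1520 ± 97.2 in WT proximal libraries, and 195 ± 40.4 in cKO distal against 1245 ± 357 in WT distal libraries (mean ± SD, n = 3 each). Bmpr1a over its whole length did not differ detectably (limma adjusted p = 0.983 proximal and 0.852 distal), and a whole-gene count includes exons outside any deleted stretch. Both cKO libraries numbered 1 held 0 reads of 4 Y-linked genes, whereas all 4 had reads in the other 10 libraries. Mitochondrially encoded genes took 9.75% to 27.7% of the reads in cKO libraries and 17.4% to 37.7% in WT libraries. The third WT distal library stood apart for the mucus genes, at 3.79 times the mean of the other 2 for Fcgbp, 3.50 times for Muc2 and 2.15 times for Clca1, so each distal result that rests on it is given without it as well.

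The mucus genes together took 1.14 ± 0.311% of all reads in cKO proximal and 1.43 ± 0.548% in WT proximal libraries. In the distal segment they took 1.34 ± 0.333% in cKO and 0.933 ± 0.483% in WT libraries. The lowest count of any of them was 193 reads, of Spdef in the first WT distal library. Compared per length, as RPKM (a read count scaled by exon length and by library depth) averaged over the 12 libraries, Tff3 (2269) and Zg16 (2042) were the highest, followed by Spink4 (702), Fcgbp (510), Clca1 (382), Muc2 (156) and Agr2 (106). The transcription factors Spdef (9.48) and Atoh1 (8.64) were far lower. The ranges of neighbours in that order overlapped at every step but the one between Agr2 and Spdef. The order differed between groups. In WT proximal libraries Zg16 (3046) and Tff3 (2544) came first and overlapped, followed by Fcgbp (610.5) and Clca1 (482), with Spink4 (223) in rank 5 and below all Clca1 values. In the other 3 groups Tff3, Zg16 and Spink4 led in that order, with Spink4 at 801 in cKO proximal, 1323 in cKO distal and 460.5 in WT distal libraries. In mm10 the remaining genes lie on the plus strand for Fcgbp (chromosome 7, 28071236 to 28120862) and Atoh1 (chromosome 6, 64729125 to 64731245) and on the minus strand for Zg16 (chromosome 7, 127050156 to 127087328), Clca1 (chromosome 3, 145003817 to 145032776), Tff3 (chromosome 17, 31125306 to 31129646) and Spdef (chromosome 17, 27714352 to 27728955). No exon of the mucus genes overlaps an exon of another annotated gene. The annotation marks the Muc2 model as a fragmented locus, so its length, and with it its level per length, is uncertain.

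Promoter sequences were looked up in RefSeq (build GRCm38.p6) for the 9 measured genes, and 5 matched: Muc2, Fcgbp, Agr2, Spdef and Atoh1. Tff3, Clca1, Spink4 and Zg16 did not. Each window held 300 bases, 250 before the start site and 50 after it. The windows of Muc2 and Agr2 are printed because these genes set the cKO distal libraries apart from the cKO proximal ones in the results below. Capitals mark the letters CANNTG, the core read by basic helix-loop-helix factors, of which ATOH1 is one. Both genes lie on the plus strand, Muc2 at chr7:141690090-141690389 and Agr2 at chr12:35992675-35992974.
Muc2: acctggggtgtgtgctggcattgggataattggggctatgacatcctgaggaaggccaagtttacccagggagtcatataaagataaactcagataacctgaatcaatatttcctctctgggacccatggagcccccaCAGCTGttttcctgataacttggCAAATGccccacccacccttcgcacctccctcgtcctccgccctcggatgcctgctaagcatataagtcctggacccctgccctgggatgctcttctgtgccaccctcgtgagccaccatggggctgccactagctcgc
Agr2: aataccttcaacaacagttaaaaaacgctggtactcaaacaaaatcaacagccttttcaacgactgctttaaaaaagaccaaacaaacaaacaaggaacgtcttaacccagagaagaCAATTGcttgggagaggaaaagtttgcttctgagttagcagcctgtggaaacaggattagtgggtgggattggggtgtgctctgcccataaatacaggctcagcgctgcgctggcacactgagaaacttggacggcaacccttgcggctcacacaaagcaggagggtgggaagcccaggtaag
The Muc2 window held CAGCTG at position -112 and CAAATG at position -89 from the start site, and the Agr2 window held CAATTG at position -133. CANNTG, searched on both strands and including every CAGCTG, occurred in 3 of the 5 windows (Muc2, Fcgbp and Agr2) and in 72.3% of all 32851 promoter windows. CAGCTG itself occurred in 2 of the 5 (Muc2 and Fcgbp) and in 16.3% of all windows. Of the other letters searched on both strands, TTTATG, a core of caudal-type homeobox factors, was in the Agr2 and Spdef windows and in 11.85% of all. GGAAGT, a core of ETS factors, was in the Fcgbp and Spdef windows and in 23.8% of all, ATCAAAG, a core of TCF factors, was in the Atoh1 window and in 3.73% of all, and GGCGCC was in none of the 5 windows and in 11.9% of all. These are matches of letters in a short window and show no binding.

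The first comparison asked how the mucus genes differed between cKO and WT in the proximal segment. Spink4 was the 1 of 9 genes that passed the test, and it rose, where 8.26% of all genes passed, 4.21% as higher and 4.05% as lower. Spink4 had scaled counts of 5763, 5208 and 8269 in cKO proximal libraries, against 2076, 1593 and 1760 in WT proximal libraries. The lowest cKO library stood at more than 2 times the highest WT library. The log2 fold change was 1.80 (SE 0.27, limma adjusted p = 0.00168), with 6413 ± 1631 in cKO and 1810 ± 246 in WT libraries (n = 3 each). Spink4 lies on chromosome 4 from 40920052 to 40931395 on the plus strand in mm10, as a protein-coding gene of 4 exon blocks.

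No other mucus gene passed in the proximal segment. Muc2 had 11434, 8955 and 13083 in cKO libraries, against 20811, 9553 and 7679 in WT libraries. The WT libraries enclosed the cKO range, and the log2 fold change was -0.06 (SE 0.55, limma adjusted p = 0.957). Fcgbp, Tff3, Agr2, Spdef and Atoh1 likewise overlapped between the groups, with log2 fold changes between -0.22 for Spdef and -0.01 for Agr2. The protease gene Clca1 had 19658, 17545 and 21372 in cKO libraries, against 43074, 25353 and 24590 in WT libraries. All 3 cKO values lay below all 3 WT values, but the log2 fold change of -0.62 (SE 0.38) did not pass (limma adjusted p = 0.335). Zg16, the lectin gene, had 36657, 28982 and 50117 in cKO libraries, against 95856, 52576 and 47295 in WT libraries. Its groups overlapped by 1 library, with a log2 fold change of -0.72 (SE 0.41, limma adjusted p = 0.294). Clca1 and Spink4 were thus the 2 of 9 genes whose libraries did not overlap, where 33.9% of all genes did not.

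The proximal Spink4 difference kept its direction and passed under each of the 19 other settings tried, at log2 fold changes of 1.47 to 2.08, including fits without any 1 library. The fit without a filter, counted among these settings, repeated the main fit. Scaling each library to a list of 14 epithelial genes instead moved the median log2 fold change of all genes to -0.24, from a value of 0.08 with the deposited scaling, and Clca1 (-0.96, limma adjusted p = 0.0376) and Zg16 (-1.06, limma adjusted p = 0.0421) then passed as lower. DESeq2 on the recovered reads also called Zg16 lower (-0.84, adjusted p = 0.0447).

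**Figure D1:**
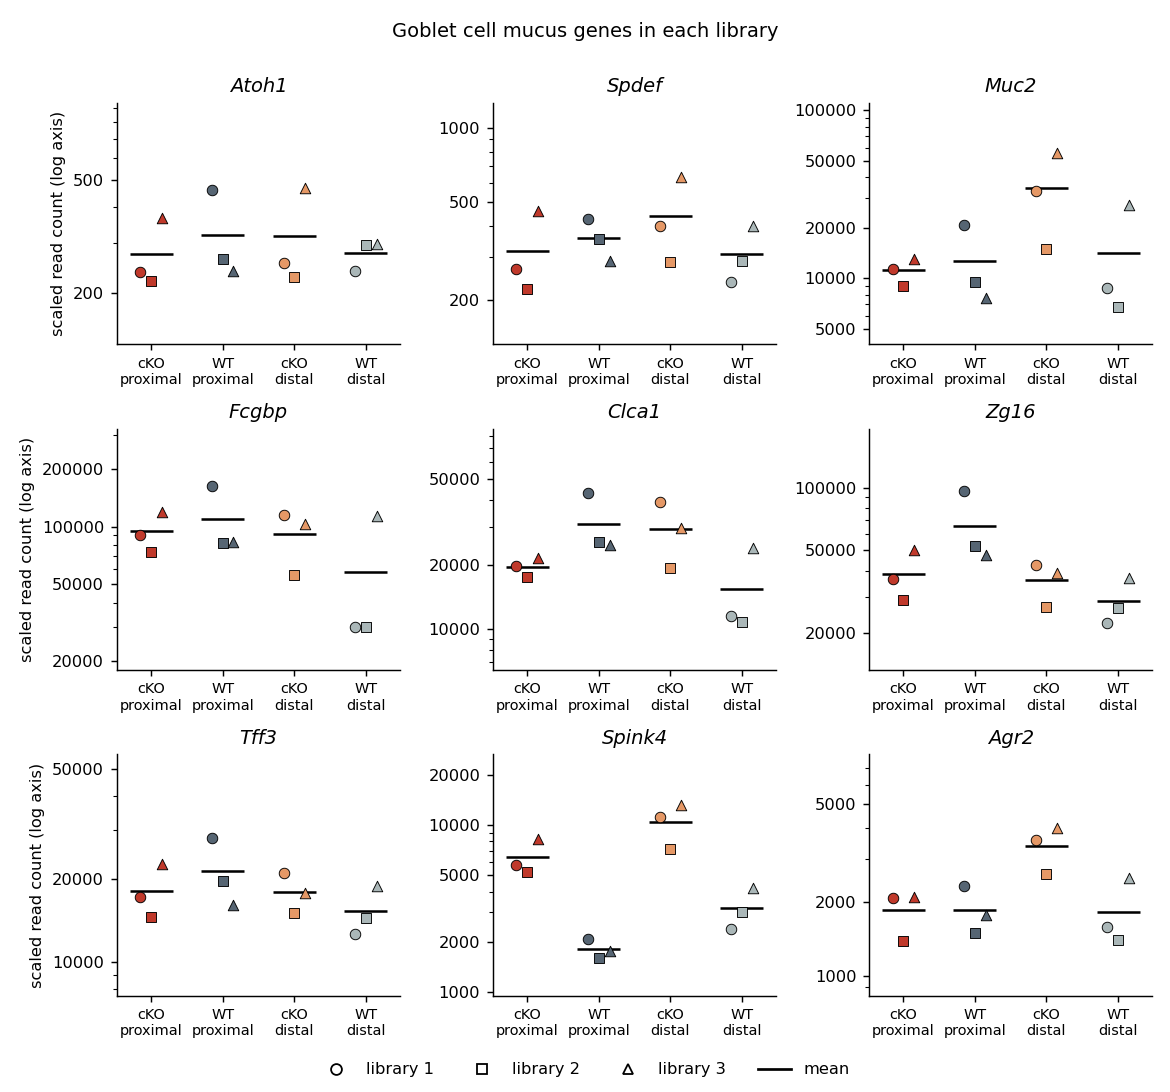
Scaled read count (log axis) of the 9 measured mucus genes in each of the 12 libraries, grouped as cKO proximal, WT proximal, cKO distal and WT distal, with symbols for the library number and a line at the group mean. Spink4 in cKO libraries lies above WT in both segments, and the third WT distal library is the highest of its group for all 9 genes.

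In the distal segment, cKO was likewise set against WT. Spink4 rose there too, and Agr2, the mucin-folding isomerase, rose with it, so 2 of 9 genes passed as higher, where 25% of all genes passed, 13.3% as higher and 11.7% as lower. Spink4 had 11094, 7135 and 13196 in cKO distal libraries, against 2389, 3033 and 4182 in WT distal libraries. The groups did not overlap, and the log2 fold change was 1.70 (SE 0.27, limma adjusted p = 0.00052). The Agr2 gene had 3566, 2600 and 3985 in cKO distal libraries, against 1579, 1405 and 2495 in WT distal libraries. The lowest cKO library lay just above the highest WT library, and the log2 fold change was 0.91 (SE 0.26, limma adjusted p = 0.0186). Agr2 lies on chromosome 12 from 35992907 to 36004087 on the plus strand in mm10.

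The distal Agr2 call held under 11 of the 19 other settings tried. It was lost without the first WT distal library (limma adjusted p = 0.0668), the second WT distal (0.0899), the first cKO distal (0.0695) or the third cKO distal library (0.053), with log2 fold changes of 0.75 to 0.86 in those fits. It was lost too with the mitochondrial share as a covariate (0.74, limma adjusted p = 0.207) and without both cKO libraries that lacked Y-linked reads (0.86, limma adjusted p = 0.0901). Scaled to the epithelial list, which moved the median of all genes to -0.61, Agr2 stood at 0.20 (limma adjusted p = 0.497). Spink4 passed under 18 of the 19 other settings. The exception scaled each library to the other 8 measured mucus genes (1.04, limma adjusted p = 0.0569).

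Muc2 itself was higher in 2 of the cKO distal libraries than in any WT distal library but did not pass. Its scaled counts were 33323, 15003 and 55308 in cKO distal libraries, against 8750, 6794 and 27197 in WT distal libraries. The second cKO library lay below the third WT library, and the log2 fold change was 1.37 (SE 0.55, limma adjusted p = 0.0849). Without the third WT distal library the value was 1.97 (limma adjusted p = 0.0089), and without the second cKO distal library it was 1.87 (limma adjusted p = 0.0327). Over all fits without 1 library it ran from 0.93 to 1.97, with limma adjusted p up to 0.301. Muc2 occupies chromosome 7 from 141690340 to 141754693 on the plus strand in mm10.

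Clca1 and Fcgbp showed the same dependence on 1 library. Clca1 had 39062, 19199 and 29488 in cKO distal libraries, against 11552, 10755 and 23978 in WT distal libraries. The groups overlapped through the third WT library, and the log2 fold change was 0.96 (SE 0.38, limma adjusted p = 0.0815), or 1.33 without that library (limma adjusted p = 0.0142). Over all fits without 1 library it ran down to 0.73, with limma adjusted p up to 0.274. DESeq2 on the recovered reads called Clca1 higher with all libraries (0.85, adjusted p = 0.0432). Fcgbp had 114487, 56051 and 102914 in cKO distal libraries, against 30106, 29923 and 113774 in WT distal libraries. Only the third WT library reached the cKO range, and the log2 fold change was 0.90 (SE 0.62, limma adjusted p = 0.32), or 1.54 without that library (limma adjusted p = 0.0471). Over all fits without 1 library it ran down to 0.57, with limma adjusted p up to 0.656. A gene named 9530053A07Rik is 86.2% identical to Fcgbp over 5890 aligned bases, so some Fcgbp reads may belong to it. With the third WT distal library left out, 5 of the 9 genes passed as higher, Spink4, Agr2, Muc2, Clca1 and Fcgbp, where 15.9% of all genes then did. That library was the highest of its group for all 9 genes, so leaving it out raised the cKO over WT difference of each. With the third cKO distal library left out instead, Spink4 alone passed (Agr2 at limma adjusted p = 0.053), where 16.4% of all genes passed as higher.

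The lectin, the trefoil peptide and the lineage regulators stayed closer together between the distal groups. Zg16 had 42655, 26683 and 39169 in cKO distal libraries, against 22335, 26608 and 36859 in WT distal libraries. Tff3 had 20998, 15129 and 17816 in cKO distal libraries, against 12647, 14481 and 18863 in WT distal libraries. Both genes overlapped between the groups, with log2 fold changes of 0.34 (SE 0.41, limma adjusted p = 0.587) and 0.24 (SE 0.30, limma adjusted p = 0.608). Spdef had 400.5, 286 and 632 in cKO distal libraries, against 236, 289 and 398 in WT distal libraries, and Atoh1 had 254, 227 and 469, against 237, 295 and 296. The second cKO library was inside or below the WT range for both regulators. Their log2 fold changes were 0.47 (SE 0.32, limma adjusted p = 0.305) for Spdef and 0.13 (SE 0.31, limma adjusted p = 0.803) for Atoh1. Scaled to the epithelial list, all 4 of these genes changed sign, to between -0.58 for Atoh1 and -0.24 for Spdef, and none passed. Spink4 and Agr2 were the 2 of 9 genes whose distal groups did not overlap, where 34.8% of all genes did not.

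**Figure D2:**
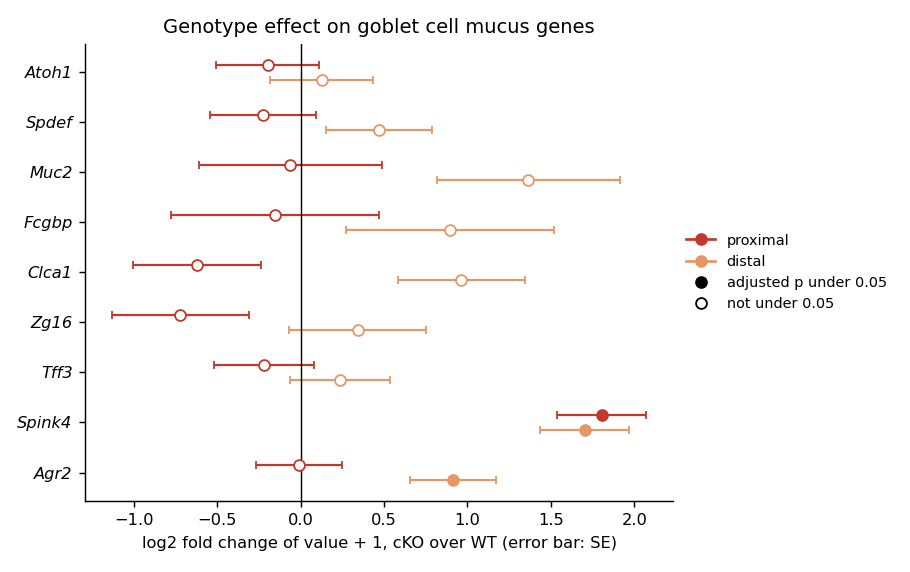
Log2 fold change of value + 1, cKO over WT, for the 9 mucus genes in the proximal and the distal segment, with the standard error as the bar and filled points where the limma adjusted p was under 0.05. Spink4 lies at 1.80 and 1.70 and Agr2 at 0.91 in the distal segment. The distal points of Zg16, Tff3, Spdef and Atoh1 lie at 0.34, 0.24, 0.47 and 0.13. Their values fall below 0 when libraries are scaled to epithelial genes, which is not drawn.

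The third comparison set the distal against the proximal segment of WT mice. Spink4 rose in the distal segment, as 1 of 9 genes passing, where 24.1% of all genes passed, 11.9% as higher and 12.2% as lower. Its values, given above, did not overlap between segments, at 3201 ± 908 in distal and 1810 ± 246 in proximal libraries, and the log2 fold change was 0.79 (SE 0.27, limma adjusted p = 0.0458). This call sat near the threshold and was lost in fits without any 1 of the 3 WT proximal libraries (limma adjusted p = 0.0588, 0.142 and 0.106) and without the second (0.104) or the third (0.149) WT distal library. It was lost also when scaled to the epithelial list (0.66, limma adjusted p = 0.0872) or with the mitochondrial share as a covariate (0.83, limma adjusted p = 0.0657).

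The other genes that separated the WT segments lay lower in the distal one. Zg16 was 28601 ± 7464 in distal and 65242 ± 26640 in proximal libraries, and all 3 distal values lay below all 3 proximal ones (log2 fold change -1.15, SE 0.41, limma adjusted p = 0.056). Clca1 was 15429 ± 7415 in distal and 31006 ± 10460 in proximal libraries, again without overlap (-1.06, SE 0.38, limma adjusted p = 0.0594). Fcgbp averaged 57934 ± 48360 in distal and 109249 ± 45900 in proximal libraries and overlapped through the third distal library (-1.15, SE 0.62, limma adjusted p = 0.208). Clca1, Spink4 and Zg16 were the 3 of 9 genes without overlap, where 38% of all genes did not overlap. Libraries of 1 number share a sample name between the segments, and with that number as a block Clca1 also passed (-1.06, limma adjusted p = 0.0493), which made 2 genes. Zg16 and Clca1 both passed as lower with TMM factors (limma adjusted p = 0.0333 and 0.0401), with edgeR (0.0184 and 0.0475) and with DESeq2 (0.00108 and 0.0149). Without the third WT distal library, Zg16 (-1.35, limma adjusted p = 0.037), Clca1 (-1.43, limma adjusted p = 0.0123) and Fcgbp (-1.79, limma adjusted p = 0.0289) passed as lower.

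The same comparison of segments was made in cKO mice. Agr2 rose in the distal segment, at 3384 ± 710 in distal and 1854 ± 403 in proximal libraries, as 1 of 9 genes passing, where 10.5% of all genes passed, 4.16% as higher and 6.36% as lower. The groups did not overlap, and the log2 fold change was 0.87 (SE 0.26, limma adjusted p = 0.0443). Muc2 was 34545 ± 20180 in distal and 11157 ± 2078 in proximal libraries, and its lowest distal library stood above its highest proximal one. The log2 fold change of Muc2 was 1.46 (SE 0.55), which did not pass in limma (adjusted p = 0.114) and passed in DESeq2 (1.69, adjusted p = 0.0153). Spink4 was 10475 ± 3077 in distal and 6413 ± 1631 in proximal libraries and overlapped between them (0.69, SE 0.27, limma adjusted p = 0.126). In the numbered pairs Spink4 was higher distally in 3 of 3, by 0.95, 0.45 and 0.67 on the log2 scale, and DESeq2 called it higher (0.75, adjusted p = 0.0471). Muc2, Clca1, Agr2, Spdef and Atoh1 were likewise higher distally in 3 of 3 cKO pairs, Tff3 in 2, and Fcgbp and Zg16 in 1. The share of all genes with such pairs was not counted. Muc2 and Agr2 were the 2 of 9 genes without overlap, where 30.1% of all genes did not overlap. The Agr2 call was lost without the first (limma adjusted p = 0.0808), second (0.168) or the third (0.0688) cKO proximal library and without the first (0.11) or the third (0.139) cKO distal library. It was lost also without both cKO libraries that lacked Y-linked reads (0.91, limma adjusted p = 0.16) and when scaled to the epithelial list (0.36, limma adjusted p = 0.258).

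Whether the genotype effect differed between segments was tested directly, as the distal minus the proximal log2 fold change. By limma 0 of 9 genes passed, where 0.576% of all genes passed, 0.175% as higher and 0.402% as lower. Of the 9, 2 (Clca1 and Agr2) had an unadjusted p under 0.05 in limma, edgeR called 0 and DESeq2 called 1, Clca1, where DESeq2 called 4.09% of all genes. The difference was 1.59 for Clca1 (SE 0.54, limma adjusted p = 0.196, DESeq2 adjusted p = 0.0277) and 0.92 for Agr2 (SE 0.36, limma adjusted p = 0.28). Muc2 (1.43, SE 0.78) and Zg16 (1.06, SE 0.58) had differences of like size with limma adjusted p = 0.456 and 0.458. For Spink4 the difference was -0.10 (SE 0.38, limma adjusted p = 0.945).

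Across libraries, the mucus genes were described together by centring each gene on its mean over the 12 libraries. The average deviation was 0.57, -0.11 and 0.76 on the log2 scale in the cKO distal libraries, against -0.71, -0.63 and 0.22 in the WT distal libraries. It was -0.08, -0.35 and 0.32 in the cKO proximal libraries, against 0.51, -0.20 and -0.29 in the WT proximal libraries. The third cKO distal library was above the mean for 9 of 9 genes and the first WT distal library for 0 of 9. The median log2 fold change of the 9 genes, cKO over WT, was 0.90 in the distal segment and -0.20 in the proximal segment, beside 0.06 and 0.08 over all genes. In the distal segment the epithelial list also lay higher in cKO libraries. The geometric mean of its 14 genes was 11710, 9488 and 7933 in cKO distal libraries, against 5198, 4987 and 7711 in WT distal libraries. In the proximal segment it was 6994, 6838 and 6402 in cKO, against 6320, 4731 and 5063 in WT libraries. The median log2 fold change of the epithelial list was 0.30 in the proximal segment, against -0.20 for the mucus genes. The third cKO distal library had the highest average deviation of the mucus genes and the lowest epithelial mean of its group. The part of epithelial content in the distal mucus gene values was not tested beyond the scaling to this list given above.

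**Figure D3:**
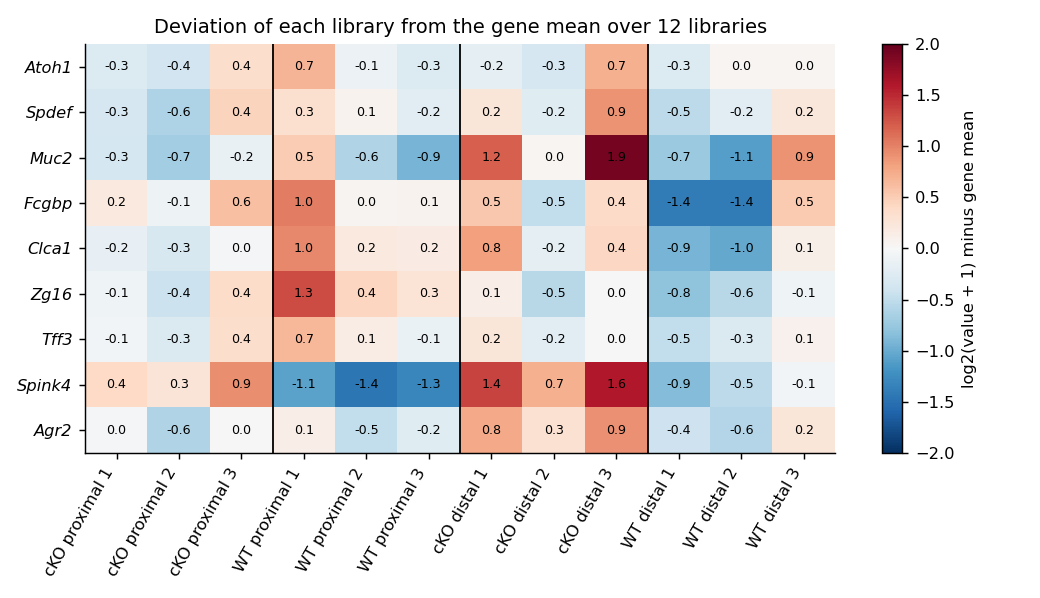
Deviation of log2(value + 1) from each gene's mean over the 12 libraries, with genes as rows and libraries as columns grouped by segment and genotype (red above, blue below the mean). The third cKO distal library is above the mean for all 9 genes, and Spink4 is below its mean in all 6 WT libraries.

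Spink4 was the gene whose pattern departed most from that of the others. Its root mean square distance from the average centred pattern was 0.83 on the log2 scale over 12 libraries, compared with 0.22 for Spdef and 0.25 for Agr2, the nearest. Set against the geometric mean of the other 8 measured mucus genes, Spink4 stood at 95.9%, 106% and 106% in cKO proximal libraries, against 19.3%, 24.8% and 29.8% in WT proximal libraries. In the distal segment it stood at 121%, 125% and 127% in cKO libraries, against 58.6%, 71.8% and 52.9% in WT libraries. Each of the 6 cKO libraries exceeded each of the 6 WT libraries by this ratio, which does not depend on how the libraries are scaled. On this scale the cKO over WT log2 difference was 2.08 in the proximal and 1.04 in the distal segment.

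**Figure D4:**
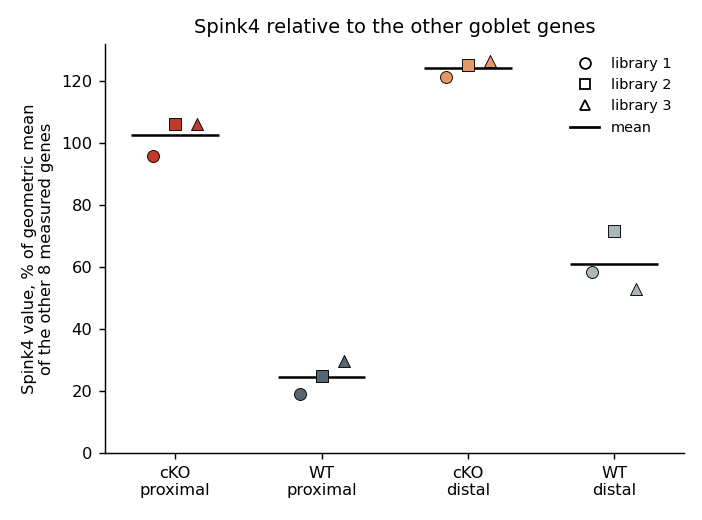
Spink4 value as a percentage of the geometric mean of the other 8 measured mucus genes in each library, with symbols for the library number and a line at the group mean. All 6 cKO libraries lie between 95.9% and 127%, above the 6 WT libraries, which lie between 19.3% and 71.8%.

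By the same distance, the genes most like Muc2 over the 12 libraries, among 9947 genes with a mean log2 value of at least 6, were Ttll3 (0.33), Recql5 (0.36), Abca7 (0.43), Mrm1 (0.44) and Cracr2b (0.44). None of the other mucus genes was as near to Muc2, Agr2 being the closest at 0.49. The genes most like the average pattern of the 9 were Plekhh3 (0.17), Unc5b (0.19), Txndc5 (0.20), Galnt12 (0.20) and B4galt7 (0.22). Txndc5 encodes a disulfide isomerase of the endoplasmic reticulum, Galnt12 an enzyme that starts mucin-type O-glycosylation, and B4galt7 a galactosyltransferase of proteoglycan synthesis.

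Other genes known from goblet cells were examined as a list of 22, of which 21 were measured. In the distal segment 9 rose and 1 fell in cKO, where 13.3% of all genes rose and 11.7% fell, with a median log2 fold change of 0.73 beside 0.06 over all genes. The transporter gene Slc12a8 had 1156, 775 and 1061 in cKO distal libraries, against 284, 277 and 488 in WT distal libraries, without overlap (log2 fold change 1.54, SE 0.24, limma adjusted p = 0.000467). Atp2c2, a calcium and manganese pump of the secretory pathway (1.63), Hgfac, a secreted serine protease (2.20), and Rep15, a Rab effector (1.02), also rose, while Ang4, an antimicrobial ribonuclease made by goblet and Paneth cells, fell (-1.76, limma adjusted p = 0.0271). In the proximal segment 3 rose and 1 fell, where 4.21% of all genes rose and 4.05% fell, with a median of 0.29 beside 0.08 over all genes. Slc12a8 (1.14), Hgfac (1.65) and Nlrp6, a sensor that takes part in goblet cell mucus release in mice (1.23), rose there and Ang4 fell (-1.88, limma adjusted p = 0.0457). Distal Slc12a8 and Atp2c2 passed under all 18 other settings tried, Hgfac under 17, Rep15 under 16 and Ang4 under 11. Of the distal rises, Klk1, Nlrp6, Pla2g10, Rep15, Tpsg1 and Tspan1 lost their call when scaled to the epithelial list. Slc12a8, Atp2c2 and Hgfac kept theirs. Several proximal calls did not hold under all settings. Ang4 passed under 8 of the 18 settings and under none that left 1 library out, where its log2 fold change ran from -2.16 to -1.54. Over all settings its adjusted p ran up to 0.275, and Hgfac passed under 9 (up to 0.188). Proximal Slc12a8 passed under 14 (up to 0.105) and Nlrp6 under 16 (up to 0.0994).

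Mucins anchored in the membrane of epithelial cells were a list of 6, with 5 measured. In the distal segment Muc3 (1.51, limma adjusted p = 0.0281) and Muc3a (1.32, limma adjusted p = 0.028) rose in cKO, and how reads are split between these 2 related genes is uncertain. Each passed under 9 of the 18 other settings and was lost without the first or the second WT distal library, without the first or the third cKO distal library, with the epithelial scaling, in edgeR and under 3 further settings (adjusted p up to 0.19 for Muc3 and 0.205 for Muc3a). Muc1 rose in the proximal segment, with 30.3, 40.3 and 41.0 in cKO libraries, against 2.10, 5.61 and 7.52 in WT libraries. These are low counts, 29 to 43 reads in cKO and 1 to 6 in WT libraries, without overlap (log2 fold change 2.76, SE 0.47, limma adjusted p = 0.00361). At 4.996 ± 2.147 in cKO distal libraries, Muc1 was present there too, and it was lower in the distal than in the proximal segment of cKO mice (-2.72, limma adjusted p = 0.00162).

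Mucins become functional through O-linked sugars added in the Golgi and through folding in the endoplasmic reticulum, and 23 genes of these steps were all measured. Distally 13 rose and 2 fell in cKO, with a median log2 fold change of 0.83, and in the proximal segment 4 rose and 1 fell, with a median of 0.47, beside 0.06 and 0.08 over all genes. The shares of all genes that rose and fell were 13.3% and 11.7% in the distal and 4.21% and 4.05% in the proximal segment. The 1 gene that fell in both segments was St6galnac1, the sialyltransferase that caps the first sugar of mucin chains. It had 0, 0 and 1 reads in cKO proximal libraries, against 64, 43 and 48 reads in WT proximal libraries, and 0 reads in each cKO distal library, against 243, 173 and 148 in WT distal libraries. Both segments were thus nearly or wholly without its reads in cKO, with log2 fold changes of -4.65 (limma adjusted p = 9.27e-06) and -6.69 (limma adjusted p = 3.92e-07) that depend on the value added before the logarithm. By read counts WT was at least 70.6-fold higher in the distal segment, taking 3 reads per cKO library as the floor. In the proximal segment WT stood 168-fold higher, with an exact 95% interval of 29.7 to 6680 that covers counting error only. The distal value is a bound and the proximal one a ratio, so they do not rank the segments.

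Several enzymes that start or branch the chains rose. Gcnt4, a branching enzyme, had 2338, 2384 and 2426 in cKO proximal libraries, against 461, 370 and 478 in WT proximal libraries, and 2065, 1918 and 1038 in cKO distal libraries, against 324, 475 and 625 in WT distal libraries. It lay without overlap in both segments and rose by 2.45 (SE 0.26, limma adjusted p = 0.000123) and 1.80 (SE 0.26, limma adjusted p = 0.000289). C1galt1c1, the chaperone of the core 1 enzyme, rose by 0.94 in the proximal and 1.68 in the distal segment. In the distal segment it passed under all 18 other settings, and in the proximal one under 12 (adjusted p up to 0.144). Gcnt3, another branching enzyme, had 3647, 2094 and 2589 in cKO distal libraries, against 324, 369 and 887 in WT distal libraries, and rose there (2.51, SE 0.36, limma adjusted p = 0.000262). Its relative Gcnt1 fell in the distal segment (-1.78, limma adjusted p = 0.00196). Of the enzymes that attach the first sugar, Galnt3 rose by 1.02 in the proximal and 1.47 in the distal segment and Galnt7 by 0.87 and 1.10, and of the folding genes the isomerases Pdia5 (1.54) and Pdia6 (0.999) and their regulator Xbp1 (0.83) rose in the distal segment. The proximal calls of Galnt3 and Galnt7 held under 10 and 11 of the 18 settings (adjusted p up to 0.219 and 0.147), and the distal ones under 18 and 17. Distal Gcnt1, Gcnt3 and Gcnt4 held under all 18, Pdia5 under 17, Pdia6 under 16 and Xbp1 under 12 (adjusted p up to 0.56). Of the distal rises, Dnajc10, Galnt10, Galnt7, Hspa5, Pdia6, St3gal6 and Xbp1 lost their call when scaled to the epithelial list. C1galt1c1, Galnt3, Galnt4, Gcnt3, Gcnt4 and Pdia5 kept theirs.

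**Figure D5:**
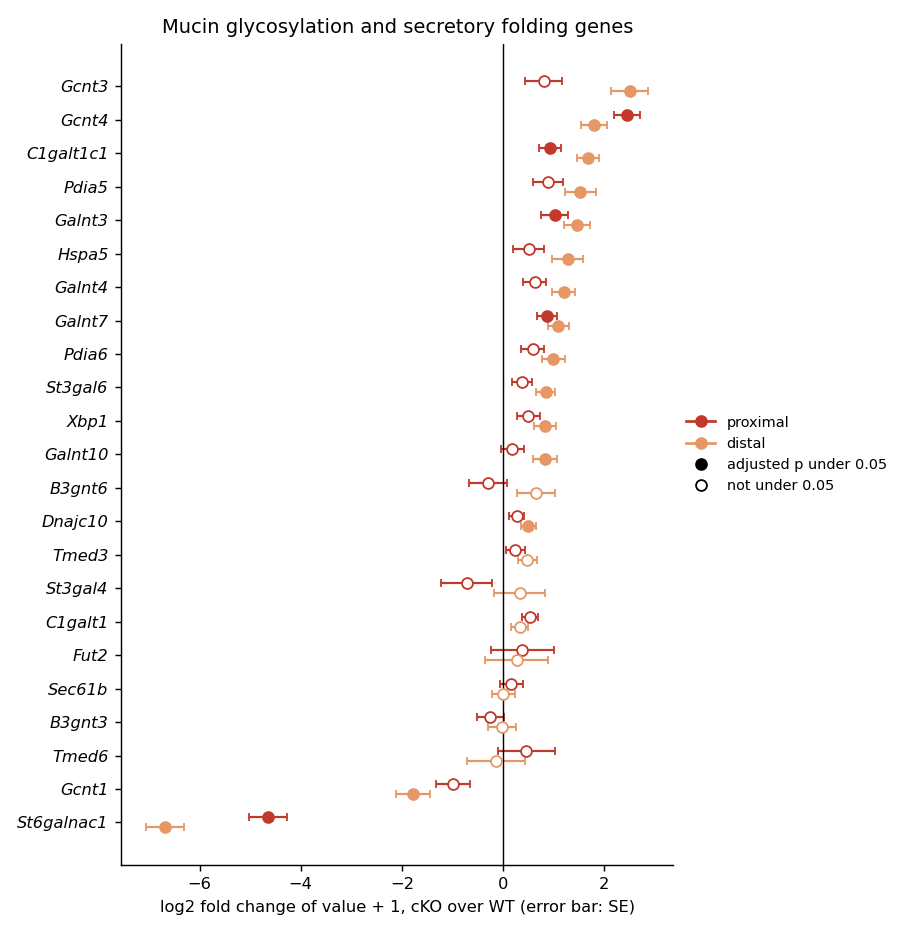
Log2 fold change of value + 1, cKO over WT, of the 23 genes of mucin glycosylation and secretory folding in the proximal and the distal segment, ordered by the distal value, with the standard error as the bar and filled points where the limma adjusted p was under 0.05. St6galnac1 lies lowest in both segments (-4.65 and -6.69), and Gcnt3 (2.51 distal) and Gcnt4 (2.45 proximal) lie highest.

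Regulators of the secretory lineage beside Atoh1 and Spdef were a list of 13, all measured. Dll1, a Notch ligand of secretory progenitors, had 835, 499 and 762 in cKO distal libraries, against 113, 139 and 260 in WT distal libraries, and rose without overlap (2.09, SE 0.31, limma adjusted p = 0.000322). Distally 4 of the 13 rose, Dll1, Dll4, Hes1 and Elf3, and 3 fell, Notch2 (-1.98, limma adjusted p = 0.000766), Klf4 and Hes5, where 13.3% of all genes rose and 11.7% fell. The median log2 fold change of the list was -0.40 in the distal and -0.26 in the proximal segment. Klf4, needed for goblet cell differentiation in mouse colon, had a log2 fold change of -0.78 (limma adjusted p = 0.0266). In the proximal segment Elf3 (0.92, limma adjusted p = 0.0162) and Hes1 (0.89, limma adjusted p = 0.0462) rose, 2 of 13, where 4.21% of all genes rose. Proximal Hes1 passed under 8 of the 18 other settings and under none that left 1 library out (adjusted p up to 0.26), and proximal Elf3 under 14 (up to 0.112). Distal Dll1 and Notch2 passed under all 18, Dll4, Elf3 and Klf4 under 12, Hes1 under 11, and Hes5 under 12 of the 15 settings that gave it a p. The scaling to the epithelial list took distal Elf3 out of the calls, at 0.07 (limma adjusted p = 0.771). Elf3 is itself in that list, so this scaling draws it towards 0.

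Markers of other cells moved with genotype as well, and their part in the mucus gene values was not tested. Of 14 epithelial genes, 8 rose in the distal and 3 in the proximal segment of cKO mice, with median log2 fold changes of 0.68 and 0.30, and Elf3 belongs to this list too. All 7 genes of B and plasma cells fell in the distal segment, where their summed values were 233 to 574 in cKO and 8769 to 20760 in WT libraries, and 4 of 7 fell in the proximal segment, with sums of 419 to 726 in cKO and 1448 to 4437 in WT libraries. Their median log2 fold changes were -5.37 and -2.13. The 8 Paneth cell genes summed to 10070 to 32562 in cKO and 9213 to 63445 in WT distal libraries, and to 4531 to 6567 in cKO and 3039 to 10064 in WT proximal libraries, with 1 of 8 (Pnliprp2) higher in each segment and median log2 fold changes of -1.19 in the distal and -0.93 in the proximal segment. Of 7 enterocyte genes 2 rose in the distal segment, Sis and Apob, and 0 rose or fell in the proximal one. The distal sums of the enterocyte genes were 454360 to 780880 in cKO and 182240 to 460730 in WT libraries. Of 7 enteroendocrine genes 3 fell in the proximal segment (Sct, Tph1 and Neurod1), and in the distal segment 2 fell (Sct and Tph1) and 1 rose (Cck). Their sums were 5432 to 14896 in cKO and 9531 to 17670 in WT proximal libraries, and 2666 to 3188 in cKO and 2246 to 3033 in WT distal libraries. Of 6 tuft cell genes Ptgs1 and Gnat3 fell in both segments, and Gnat3 was at 0 reads in at least 1 library. The tuft cell sums were 1030 to 1862 in cKO and 2904 to 6648 in WT proximal libraries, and 568 to 1150 in cKO and 919 to 3878 in WT distal libraries.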

How the data were processed

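RNA from proximal and distal small intestine of cKO and WT mice was sequenced as 12 libraries. Per the labels, RNA extraction used Trizol and the library kit was Ovation V2. Reads were aligned to mm10 with STAR and analysed with DESeq2 1.28.1, per the submitters' processing notes. The sample values the authors deposited are a signal scaled by library: each is a whole multiple of its column's step, within 0.001 steps, equal to (read count + 1) divided by a size factor, so whole reads could be recovered. The deposited log2 fold change, its standard error, the Wald statistic (a score), the p-value and the adjusted p-value belong to cKO proximal over WT distal libraries, found by arithmetic (median absolute difference 0.00169), and were used only for the values in the closing section.

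The main test was limma 3.58.1 (R 4.3.3), moderated with a mean-variance trend, of log2(value + 1) fitted as 4 group means over 12 libraries. Genes needed a value of 1 or above in no fewer than 3 libraries. This filter removed no gene, so the setting without a filter repeated the main fit wherever settings are counted. Calls took a Benjamini-Hochberg adjusted p under 0.05 over all 17175 genes. Fold changes are on that scale and are understated for genes with few reads. Alternatives were edgeR 4.0.16 and DESeq2 1.42.0 on recovered reads, TMM factors, other pseudocounts and filters, scaling to 14 epithelial genes, the replicate number as a block, each segment's or genotype's libraries alone, the mitochondrial share as a covariate, and libraries left out. The fits were tested on simulated data. Between segments of a genotype, libraries of 1 number share a sample name and their deviations from the group means correlated at 0.287 to 0.483, so the numbers pair the segments. Between genotypes the correlations were -0.203 to 0.122, and the numbers do not pair them. Genomic positions are from GENCODE M21 (mm10), in which 17158 identifiers were found, and promoters are from RefSeq. The genes named from each list are up to 4 per comparison with the smallest p, besides all mucus genes, and some genes outside that rule (Galnt3, Gcnt1, Pdia5, Pdia6, Xbp1, Klf4, and the further called genes of each list) were chosen after their values were seen. The mucus genes and the lists were chosen with earlier results of these data known. No column of per-sample values was left unmatched.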

Additional observations from a re-analysis of the deposited data

Results flagged for a closer look

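For Clca1 the library pairs of the 2 genotypes lay on opposite sides of 0 between segments. Its distal minus proximal log2 difference within a library number was 0.99, 0.13 and 0.46 in cKO mice, against -1.90, -1.24 and -0.04 in WT mice, so every cKO pair was higher and every WT pair lower in the distal segment, the third WT pair by little. Clca1 was flagged by this split of its own values, and how many of all genes split likewise was not counted. Neither segment difference passed alone in limma, at 0.53 in cKO mice (adjusted p = 0.445) and -1.06 in WT mice (adjusted p = 0.0594). The difference between the genotypes was 1.59, and its direct test did not pass in limma (adjusted p = 0.196) and passed in DESeq2 (adjusted p = 0.0277). Over the alternatives tried the difference ran from 0.86 to 1.95, with adjusted p from 0.0277 to 0.609 in the count and limma fits.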

How the results depend on the processing

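Of the log2 fold changes of the mucus genes under settings other than leaving out 1 library, 520 kept direction and side of the threshold, 10 lost their call, 19 gained one and 27 changed sign. The 520 include those of the fit without a filter, which repeated the main fit. None of the sign changes involved a value that passed, and the cause of each was not tested. The Spink4 genotype calls held in both segments under every setting from the planned list. The scaling to the other 8 measured mucus genes was chosen after seeing the data.

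Scaled to the epithelial list, the count of mucus genes passing was 3 (proximal, cKO over WT), 1 (distal, cKO over WT), 3 (WT segments) and 0 (cKO segments). The shares of all genes passing were 7.23%, 36.1%, 21.8% and 27.7%, in the same order. Values that changed sign under that scaling were Tff3 (-0.48), Zg16 (-0.37), Spdef (-0.24) and Atoh1 (-0.58) in the distal genotype comparison, Muc2 between WT segments (-0.11), Spdef (-0.039) and Atoh1 (-0.34) between cKO segments, and the Atoh1 difference of genotype effects (-0.049). Scaled to the other mucus genes, 0 passed in the distal genotype comparison and 0 between cKO segments. The signs changed for Agr2 in the proximal comparison (0.041), for Tff3 (-0.61), Zg16 (-0.49), Spdef (-0.35) and Atoh1 (-0.73) in the distal one, for Agr2 (0.37), Spdef (0.17) and Atoh1 (0.25) between WT segments, for Atoh1 between cKO segments (-0.31), and for the differences of genotype effects of Tff3 (-0.41), Spdef (-0.14) and Atoh1 (-0.56).

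With the mitochondrial share as a covariate, 1 gene passed in the distal genotype comparison and 0 between WT segments, where 8.1% and 19.5% of all genes passed. The signs then changed for distal Tff3 (-0.070), for Agr2 between WT segments (0.040), and for Tff3 (0.098), Fcgbp (0.093) and Zg16 (0.020) between cKO segments. DESeq2 called 2 genes in the proximal comparison (14.9% of all genes), 3 between WT segments (28.8%), 3 between cKO segments (17.1%) and 1 for the difference of genotype effects (4.09%). By DESeq2 Tff3 was at 0.011 between cKO segments. Tff3 stood at 0.023 there with TMM factors. TMM factors, edgeR and a filter at 10 each gave 3 genes between WT segments, where 26.5%, 30.5% and 27.9% of all genes passed. Without both cKO libraries numbered 1, the counts were 1 in the distal genotype comparison and 0 between cKO segments, where 12.6% and 5.02% of all genes passed. With the replicate block, 2 genes passed between WT segments, where 28.7% of all genes passed, and the pairing changed no other count of mucus genes.

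With 1 library left out, the counts ran from 1 to 5 in the distal genotype comparison, from 0 to 3 between WT segments and from 0 to 1 between cKO segments. The shares of all genes passing ran from 14.4% to 28.8%, from 16.0% to 22.8% and from 6.0% to 9.0% in these comparisons. The values that crossed 0 ran as follows. In the proximal comparison Muc2 ran from -0.36 to 0.36, Tff3 from -0.40 to 0.0027, Fcgbp from -0.33 to 0.17, Agr2 from -0.15 to 0.19 and Atoh1 from -0.42 to 0.095. In the distal one Atoh1 ran from -0.19 to 0.33. Between WT segments Muc2 ran from -0.58 to 0.45, Agr2 from -0.30 to 0.12 and Atoh1 from -0.34 to 0.13. Between cKO segments Tff3 ran from -0.15 to 0.17, Fcgbp from -0.29 to 0.22, Zg16 from -0.27 to 0.12 and Atoh1 from -0.16 to 0.39. The Spink4 difference of genotype effects ran from -0.29 to 0.15. With 3 libraries a group, the standard errors of Muc2 (0.55) and Fcgbp (0.62) limit what could be called.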

Other observations

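Cytokines of type 2 immunity and their receptors, which act on goblet cells, were a list of 9 with 7 measured. Of these 7, 1 rose in the distal segment of cKO mice, where 13.3% of all genes rose, and the median log2 fold change of the list was -0.07. The gene was Il13ra1, a receptor subunit for interleukin-13, at 2045 ± 641 in cKO and 998 ± 155 in WT libraries (log2 fold change 0.99, limma adjusted p = 0.0232, n = 3 each). How this call fared under the other settings is not given here. Il4, Il25 and Il22 each had 0 reads in at least 1 library.

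In the authors' deposited table, which sets cKO proximal over WT distal libraries and so changes genotype and segment together, Spink4 was the 1 of the 9 mucus genes with an adjusted p under 0.05 (log2 fold change 1.002, adjusted p = 0.00222). Fcgbp (0.71, adjusted p = 0.24) and Zg16 (0.43, adjusted p = 0.301) followed in the authors' deposited table, and Muc2 stood at -0.35 (adjusted p = 0.638).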
